A study of Homo sapiens with 2 samples.

Results

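RBM47 belongs to a small family of RNA-binding proteins, and the deposited clusters of Flag-RBM47 tags were examined here over the transcripts of RBM47 itself and of its 5 closest paralogues, A1CF, SYNCRIP, HNRNPR, RBM46 and DND1. The genes were taken by symbol, and every cluster listed under one of these 6 symbols was kept. They came to 77 of the 233546 clusters in the table. RBM47 had 6 clusters, SYNCRIP 56 and HNRNPR 15, while A1CF, RBM46 and DND1 had no deposited cluster.

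The series holds 1 group with 2 replicates and no control library. The cells were MDA231-BrM2a, a non-clonal brain metastatic derivative of the breast cancer line MDA-MB-231, which stably carried wild-type RBM47 with a Flag tag under a doxycycline-inducible promoter. Both replicates received 1 ng/ml doxycycline for 3 days, were irradiated with ultraviolet light to join protein to the RNA it touches, and were taken through a Flag pull-down and sequencing of the RNA fragments (HITS-CLIP). The labels do not say whether the replicates were separate cultures, so an SD over them may be technical.

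A tag is a unique read, counted once after removal of amplification copies, and a cluster is a stretch of overlapping tags. The table lists 999047 tags of replicate 1 and 3489697 of replicate 2, and no cluster has fewer than 5 tags in all or lacks a tag in either replicate. Single clusters are therefore measured less precisely in the smaller replicate 1. Of the markers of mesenchymal breast cancer lines looked for, VIM, CD44, EGFR and FN1 all had clusters, and of the luminal markers ESR1, PGR, GATA3, CDH1 and KRT18 none had. Tags depend on both the amount of an RNA and the contact with it. RNA levels were not used here, so these cannot be told apart, and a missing cluster does not show that a gene was silent.

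The 6 proteins share RNA recognition motifs. A1CF (APOBEC1 complementation factor) and RBM47 are known as cofactors that bring the cytidine deaminase APOBEC1 to its RNA targets, of which the APOB transcript is the classical case. SYNCRIP, also called hnRNP Q, and HNRNPR are broadly expressed proteins of mRNA processing, transport and stability. RBM46 and DND1 are known from the germ line, where DND1 is needed for the survival of primordial germ cells.

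Since paralogues can share reads, the transcripts of the 6 genes in GENCODE release 44 were first searched for identical stretches. Over the 15 pairs the longest exact stretch in common ranged from 11 to 22 nt, and the shortest of the 77 clusters was 39 nt long. The tag lengths are not in the table. The search took exact matches between spliced transcripts only. It left out introns, sequences outside these transcripts and matches with mismatches, so it cannot show that no tag was shared. The longest stretch was in the coding sequences of SYNCRIP and HNRNPR, which also were the closest pair by alignment, with 76.4% identity over 1860 aligned coding nt. RBM47 was 61.7% identical to A1CF, 59.9% to RBM46, 57.7% to SYNCRIP and 59.0% to HNRNPR over the aligned coding nt, and 67.4% to the shorter DND1. The identity counts aligned bases only and leaves out gaps, so it does not rank the members by relatedness. The authors named A1CF and hnRNP Q, which is SYNCRIP, as the closest homologues of RBM47. The windows of 30 coding bases around the longest coding stretch of a pair are given below for 3 pairs. They are the pair with the longest stretch and RBM47 with the 2 members of highest identity over the aligned coding nt. A stretch of 18 nt shared by A1CF and RBM46, neither of which had a cluster, is not shown. They are written 5′ to 3′ in DNA letters from the GENCODE transcripts, with the identical stretch in capitals and positions counted from 1 at the first base of the start codon.
SYNCRIP, capitals at coding positions 1505 to 1526 of a transcript that is not the MANE Select one: gatcATTCTGGTAACTATGGTTACAAatct
HNRNPR, capitals at coding positions 1829 to 1850: gactATTCTGGTAACTATGGTTACAAtaat
RBM47 against DND1, capitals at coding positions 576 to 592: gatgaaGAACCGCGGCTTCGCCTtcgtgga
DND1 against RBM47, capitals at coding positions 288 to 304: cggcctGAACCGCGGCTTCGCCTatgcccg
RBM47 against A1CF, capitals at coding positions 442 to 455: gctgcagcGTGGACAACTGCCGcctcttca
A1CF against RBM47, capitals at coding positions 397 to 410: gtgccagtGTGGACAACTGCCGattatttg
The stretch shared by RBM47 with DND1 was 17 nt long and that with A1CF 14 nt. Neither DND1 nor A1CF had a cluster.

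The RBM47 transcript carried more tags than either paralogue. RBM47 was also the only family gene introduced into these cells, and both replicates were induced with doxycycline. RNA levels were not used here, so its ranks and ratios do not separate the amount of RNA from the contact with it. RBM47 (Entrez gene 54502) had 395 tags in replicate 1 and 1554 in replicate 2. SYNCRIP (Entrez gene 10492) had 217 and 692 tags, and HNRNPR (Entrez gene 10236) had 62 and 182. Scaled to 1000 tags of the same replicate in the table, these were 0.420 ± 0.0353 (SD, n = 2) for RBM47, 0.208 ± 0.0134 (SD, n = 2) for SYNCRIP and 0.0571 ± 0.00700 (SD, n = 2) for HNRNPR. The order was the same in both replicates and the values of the 3 genes did not overlap. Among 7698 gene symbols with clusters, RBM47 ranked 349 by tags, SYNCRIP 922 and HNRNPR 2524. The median gene had 97 tags.

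Long transcripts can hold more clusters, so the genes were also compared per kb of cluster length. This length is the summed width of the listed clusters and not the length of the transcript. Shallow clusters therefore lower the value. Per kb of its clusters, RBM47 had 0.235 ± 0.0198 (SD, n = 2) tags per 1000 table tags. SYNCRIP had 0.0377 ± 0.00243 (SD, n = 2) and HNRNPR 0.0386 ± 0.00474 (SD, n = 2) on this scale. RBM47 was thus 5.62 times SYNCRIP in replicate 1 and 6.93 times in replicate 2. The ratio of SYNCRIP to HNRNPR was 0.938 in replicate 1 and 1.02 in replicate 2, so these neighbours did not differ beyond their spread. Of 3821 genes with at least 100 tags, RBM47 ranked 46 by tags per kb of clusters, HNRNPR 1633 and SYNCRIP 1635. With 2 replicates against 2, the two-sided exact permutation test cannot give less than p = 0.333, which was the p for RBM47 against SYNCRIP and against HNRNPR on both scales. Over the 3 pairs no adjusted p could therefore pass. The test also leaves out that the genes were measured in the same 2 libraries, so it decides nothing on their difference.

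**Figure D1:**
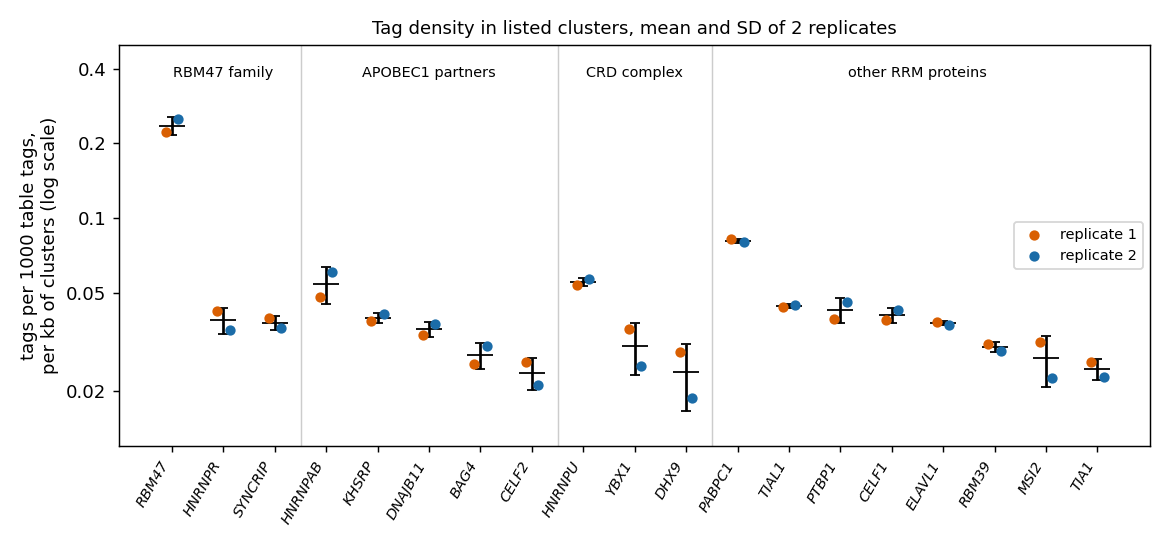
Tags per 1000 table tags and per kb of cluster length (log scale) for the genes with clusters in the RBM47 family and in 3 other gene lists (CRD, coding region determinant, and RRM, RNA recognition motif). Orange and blue points are replicates 1 and 2, the dash is their mean and the bar the SD (n = 2). RBM47 is the highest gene drawn, at 0.235, and SYNCRIP and HNRNPR lie at 0.0377 and 0.0386. The marker genes are not drawn, and VIM among them is higher, at 0.275.

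All tags of RBM47 were in clusters labelled as coding sequence (CDS), alone or at its ends. The gene lies on the minus strand of chromosome 4. The cluster with most tags over both replicates, at chr4:40134543-40135221 in CDS, had 96 tags in replicate 1 and 419 in replicate 2. The cluster at chr4:40129421-40129641 in CDS had 116 and 391 tags, so it was the larger in replicate 1 and the smaller in replicate 2. The cluster at chr4:40122674-40122923, labelled as CDS and 3'UTR, had 83 and 355 tags. These 3 clusters held most of the tags of the gene in both replicates.

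The remaining RBM47 clusters were smaller. The CDS cluster at chr4:40133212-40133428 had 54 and 207 tags, and the CDS cluster at chr4:40135240-40135459 had 25 and 105. The cluster nearest the 5′ end, at chr4:40135467-40135670 and labelled as CDS and 5'UTR, had 21 and 77 tags. Coordinates are those of the deposited table. The submitters' processing notes name the build hg18, and whether positions count from 0 or from 1 is not known. No hg18 sequence was used here, so no bases of the clusters are shown.

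Clusters labelled CDS alone held 73.7% of the RBM47 tags in replicate 1 and 72.2% in replicate 2, and the 2 clusters with several labels held the rest. No cluster of RBM47 was labelled 3'UTR alone, intron or 5'UTR alone. Over all genes, CDS alone held 10.5% ± 0.137 (SD, n = 2) of genic tags, 3'UTR alone 40.7% ± 1.55 (SD, n = 2) and introns 28.5% ± 2.36 (SD, n = 2). The introduced RBM47 was wild type, and its tags and those of the endogenous transcript cannot be told apart in the table. In the paper, endogenous RBM47 protein was lowest in the brain metastatic lines among those compared. How many tags came from each source was not tested. Whether the introduced sequence carried untranslated sequence is not stated in the sources used here.

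Having no cluster labelled 3'UTR alone and none labelled intron alone was uncommon. It was met by 52 of the 3821 genes with at least 100 tags, or 1.36%, and all tags were in CDS-containing clusters in 22 genes, or 0.576%. Among the 839 genes with at least 1000 tags, 5 had all tags in such clusters. The other 4 were DKK1, an inhibitor of Wnt signalling, CTGF, a matricellular growth factor, PRNP, the prion protein, and ITM2B, a membrane protein. These 4 fall outside the rule for naming genes and were picked once their values were known. In these a single cluster held between 86.6% (ITM2B) and 98.7% (PRNP) of the tags, with 94.1% in DKK1 and 95.4% in CTGF. A cluster counts as CDS-containing also when its label adds an untranslated region. The authors described the binding in DKK1 as mainly in the 3'UTR. In RBM47 the cluster with most pooled tags, which was not the largest in replicate 1, held 26.4%, and its 6 clusters lay over a span of 12996 nt.

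The layout of the RBM47 clusters was then set beside the coding exons of the gene, by length alone, as the annotation at hand is on GRCh37 and no coordinate was carried between builds. The 6 clusters summed to 1785 nt, and the coding sequence of the MANE Select transcript in GENCODE is 1779 nt in 4 coding exons. From the 5′ end, the first 3 clusters were separated by gaps of 8 and 19 nt and together spanned 1127 nt, and the first coding exon has 1123 coding nt. The following clusters were 216, 220 and 249 nt long, and the remaining coding exons have 207, 212 and 237 coding nt. The gaps between these 4 stretches were 1115, 3571 and 6498 nt, against introns of 1123, 3578 and 6507 nt. The clusters thus followed the order and the lengths of the coding parts of the 4 coding exons. Each stretch, measured as end minus start, was slightly longer than the coding part of its exon. Untranslated parts of these exons are not in the lengths compared. The annotated 3'UTR is 495 to 2640 nt long over 4 coding transcripts. One of these lacks the coding exon of 207 nt.

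Tag density rose along the transcript as far as the fifth cluster. From 5′ to 3′ the clusters held 10.3, 11.4, 14.2, 25.0, 52.7 and 33.3 tags per 100 nt in replicate 1. In replicate 2 they held 37.9, 47.9, 61.8, 95.8, 178 and 143. The order was the same in both replicates, with the fifth cluster highest and the last, labelled as CDS and 3'UTR, next. By tags, the 4 CDS clusters were each above between 99.18% and 99.96% of the clusters labelled CDS alone in the table. On the whole gene, the first 3 clusters, set above beside the coding part of the first coding exon, held 38.1% of the tags.

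**Figure D2:**
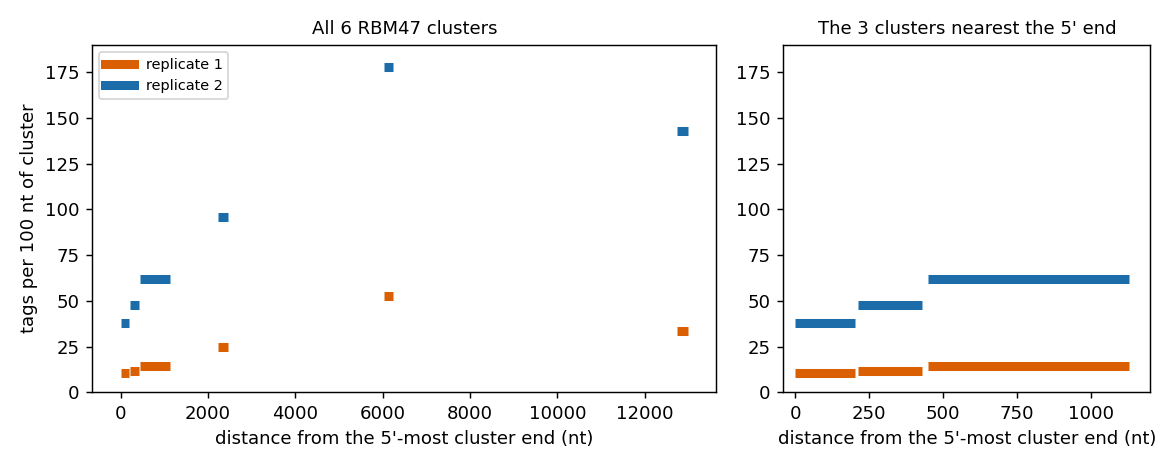
Tags per 100 nt in each of the 6 RBM47 clusters, drawn from the 5′-most cluster end along the minus strand, with the width of a bar equal to the cluster length. The right panel enlarges the 3 clusters nearest the 5′ end. In both replicates (orange and blue) the density is lowest in the first cluster, at 10.3 and 37.9, and highest in the fifth, at 52.7 and 178.

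In SYNCRIP the tags were mostly in the 3'UTR. Clusters labelled 3'UTR alone held 70.9% ± 3.78 (SD, n = 2) of its tags, introns 10.8% ± 4.26 (SD, n = 2) and CDS alone 6.997% ± 0.119 (SD, n = 2). The remaining 11.3% ± 0.354 (SD, n = 2) were in clusters with several labels. CDS-containing clusters held 12.3% ± 0.520 (SD, n = 2) of the SYNCRIP tags, against 100% in both replicates of RBM47, and the median over genes with at least 100 tags was 12.7%. Pooled over the replicates, the SYNCRIP share in clusters labelled 3'UTR alone was above that of 65.7% of these genes.

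The SYNCRIP clusters, on the minus strand of chromosome 6, were many and shallow. Their tags over both replicates ranged from 5 to 113 with a median of 9.50, against a median of 350 tags in RBM47 clusters. The 4 largest lay together in the 3'UTR between 86377803 and 86379037, a span of 1234 nt, and held 38.3% of the tags of the gene. The largest, at chr6:86378683-86379037, had 25 tags in replicate 1 and 88 in replicate 2. The cluster at chr6:86378182-86378511 had 15 and 70 tags, that at chr6:86377803-86377976 had 16 and 62, and that at chr6:86378015-86378181 had 18 and 54. The fifth by tags over both replicates, at chr6:86380642-86380810, dropped to 5 and 28 tags.

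All the 27 SYNCRIP clusters labelled 3'UTR alone lay within 6381 nt, and the annotated 3'UTR differs widely between isoforms, from 31 to 5106 nt over 19 coding transcripts. The 14 intron clusters held 5 to 9 tags each, with 30 tags in replicate 1 and 54 in replicate 2 in all. In 28 of the 56 clusters replicate 1 had at most 2 tags, so single clusters of SYNCRIP were weakly measured there.

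HNRNPR showed a like distribution over its listed clusters. Clusters labelled 3'UTR alone held 71.2% ± 4.29 (SD, n = 2) of its tags, CDS alone 17.97% ± 4.89 (SD, n = 2) and introns 10.9% ± 0.602 (SD, n = 2). The 3'UTR share differed from that of SYNCRIP by less than the spread between replicates. Pooled over the replicates, the HNRNPR share was above that of 62.9% of the genes with at least 100 tags. The largest cluster, at chr1:23508753-23508925 on the minus strand in the 3'UTR, had 19 tags in replicate 1 and 50 in replicate 2. The next were the 3'UTR clusters at chr1:23509154-23509239 and chr1:23509243-23509402, each with 8 and 22 tags, and the CDS cluster at chr1:23509890-23510097 with 5 and 23. The 3'UTR cluster at chr1:23508980-23509083 had 7 tags in each replicate. The remaining 10 clusters had no more than 14 tags over both replicates.

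**Figure D3:**
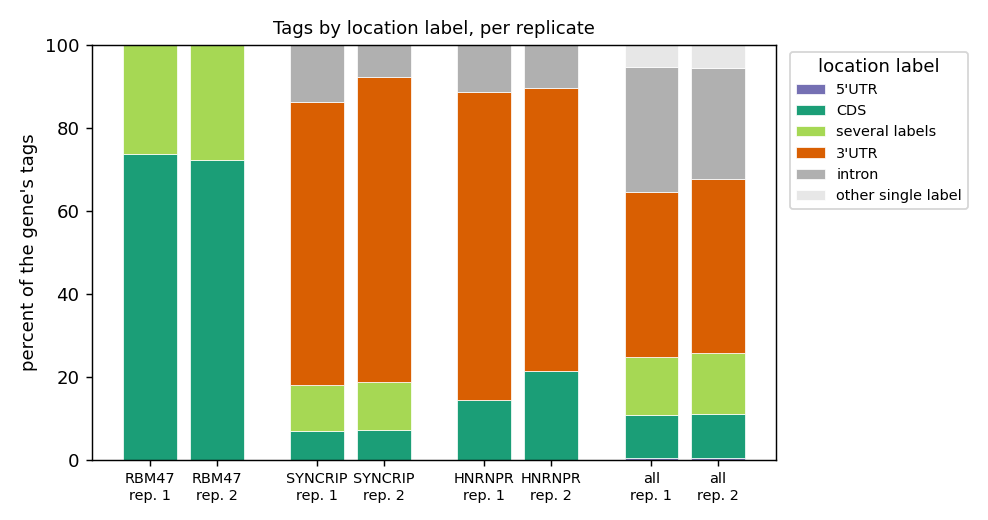
Percent of the tags of RBM47, SYNCRIP, HNRNPR and all genes in each class of location label, with a bar for each replicate. RBM47 holds only CDS tags (73.7% and 72.2%) and tags with several labels, whereas 3'UTR tags make up 68.2% and 73.6% in SYNCRIP and 74.2% and 68.1% in HNRNPR.

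More tags lay just past the listed end of HNRNPR than in its clusters. The largest HNRNPR cluster was also the one nearest its 3′ end, and 1 nt further on the same strand began a series of 46 clusters that carry no gene and are labelled as downstream of a gene within 10 kb. They held 190 tags in replicate 1 and 682 in replicate 2, or 3.06 and 3.75 times the tags of the HNRNPR clusters. Of 3821 genes with at least 100 tags, 31.0% had such clusters within 10 kb past their last cluster, and 3.32% had at least as many tags there as in the gene. The pooled HNRNPR ratio of 3.57 was above that of 99.5% of these genes.

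The downstream tags mostly thinned out with distance. The first kb past HNRNPR held 67 tags in replicate 1 and 226 in replicate 2, the second kb 51 and 199, and the third kb 30 and 84. In all, 86.9% of the tags lay within the first 5 kb, and none lay between 9 and 10 kb. The fall was not steady, with 3 and 12 tags at 6000 to 7000 nt and 11 and 36 at 7000 to 8000 nt. The largest of these clusters, at chr1:23507732-23507885, had 20 and 52 tags. Its 72 tags over both replicates were close to the 69 of the largest HNRNPR cluster, and the next downstream clusters had 54. The listed HNRNPR clusters labelled 3'UTR alone spanned 768 nt. GENCODE lists HNRNPR 3'UTRs from 3 to 5769 nt over 7 coding transcripts, the longest in the MANE Select transcript. Which transcript the downstream tags came from cannot be told from the table.

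SYNCRIP had 10 such downstream clusters with 19 tags in replicate 1 and 42 in replicate 2, or 0.0876 and 0.0607 times its own tags, and RBM47 had none. With the downstream tags counted as HNRNPR tags, HNRNPR would reach 0.250 tags per 1000 table tags and lie above SYNCRIP, which would reach 0.223. The order of SYNCRIP and HNRNPR by tags therefore rests on where the gene is taken to end. No cluster lay on the opposite strand within 10 kb of the clusters of any of the 3 genes.

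**Figure D4:**
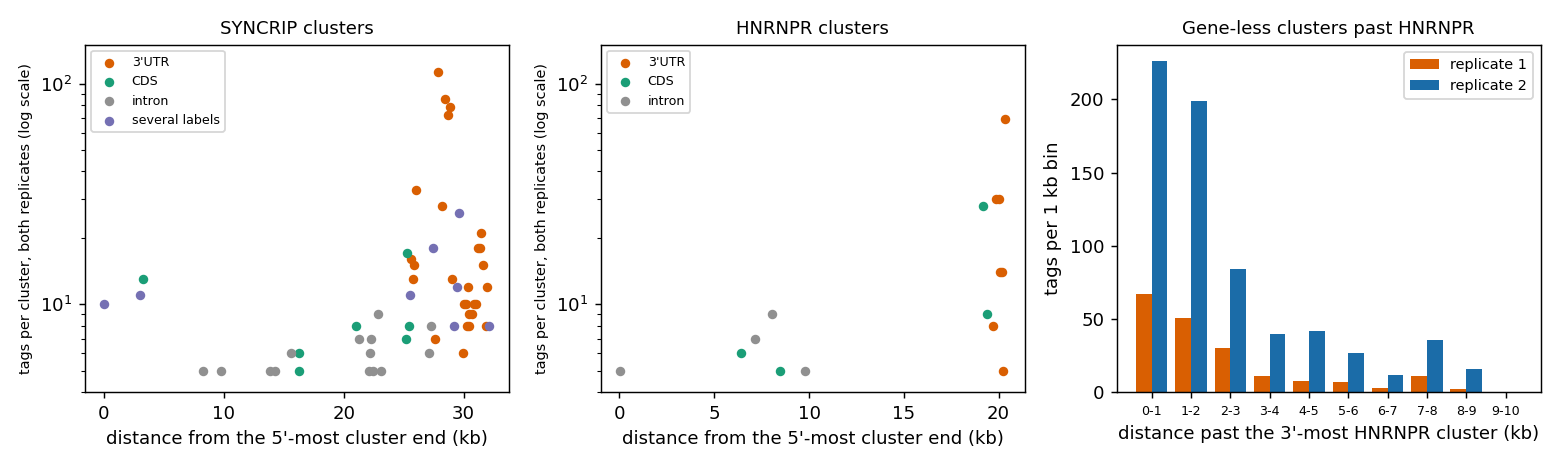
Tags over both replicates in each SYNCRIP cluster (left) and HNRNPR cluster (middle), on a log scale, against the distance from the 5′-most cluster end, coloured by location label, and tags per replicate in 1 kb bins of the gene-less clusters past the 3′-most HNRNPR cluster (right). The clusters with most tags lie near the 3′ end of both genes, with maxima of 113 and 69 tags. The downstream bins go from 67 and 226 tags in the first kb to none in the last, with a rise to 11 and 36 at 7000 to 8000 nt.

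The base composition differed between the annotated coding sequences and 3'UTRs, each taken whole, as no bases of the clusters were read. It was computed on the longest coding transcript of each gene in GENCODE, since U-rich stretches are common sites of RNA-binding proteins in 3'UTRs. T, which stands for U in the RNA, made up 16.0% of the RBM47 coding sequence, which is less than in most of the 19655 coding sequences, with a median of 21.7% and 10.7% of the genes below RBM47. The letters TTTTT, counted on the transcript strand with overlaps, did not occur in it, and occurred in 46.2% of all coding sequences. The RBM47 3'UTR, which was part of the label of only the last cluster, was 34.0% T and had 13.7 matches per kb.

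The 3'UTRs of the paralogues were richer in T than their coding sequences. The medians over all genes differed in the same direction. T made up 34.6% of the SYNCRIP 3'UTR and 36.7% of the HNRNPR 3'UTR, with a median of 29.7% over 16959 genes with a 3'UTR of at least 200 nt. The letters TTTTT occurred 7.64 and 11.8 times per kb in them, with a median of 5.15, and in 83.6% of all these 3'UTRs. Of the members without clusters, A1CF and RBM46 were above the median, with 33.0% and 37.4% T in the 3'UTR, and DND1 was below it, with 28.7%. The letters TTTTT occurred 6.69, 14.7 and 1.99 times per kb in the 3'UTRs of A1CF, RBM46 and DND1. Whether composition bears on the missing clusters was not tested. A match is a description of the annotated letters and not a site of contact.

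Agreement between the replicates was examined for the 77 clusters. The replicate 1 share of the tags was 20.3% in RBM47 (Wilson 95% interval 18.5 to 22.1), 23.9% in SYNCRIP (21.2 to 26.8) and 25.4% in HNRNPR (20.4 to 31.2). The intervals cover counting error only. For each cluster this share was set against 22.3%, that of the whole table, in an exact binomial test (two-sided, adjusted over all clusters), a comparison of 2 libraries and not of conditions. No family cluster passed, against a background of 0.0111% of all clusters. At an unadjusted p under 0.05 there were 3 of 77 clusters, or 3.90%, against 3.04% of all clusters. These were the RBM47 cluster with most pooled tags (p = 0.0499, exact binomial test), a SYNCRIP cluster with 9 and 12 tags (p = 0.0333) and the HNRNPR cluster with 7 tags in each replicate (p = 0.0208), all with an adjusted p of 1.

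By gene, tested likewise against 22.04% over all genic tags, none of RBM47, SYNCRIP and HNRNPR passed, with adjusted p of 0.521, 0.754 and 0.798 in the exact binomial test, against a background of 1.51% of all genes called. None of the 3 reached an unadjusted p under 0.05. Across the clusters of a gene, Spearman's rho between the replicates was 0.943 over the 6 RBM47 clusters, 0.472 over the 56 of SYNCRIP and 0.613 over the 15 of HNRNPR. Clusters of a gene share a transcript, so these are descriptions.

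**Figure D5:**
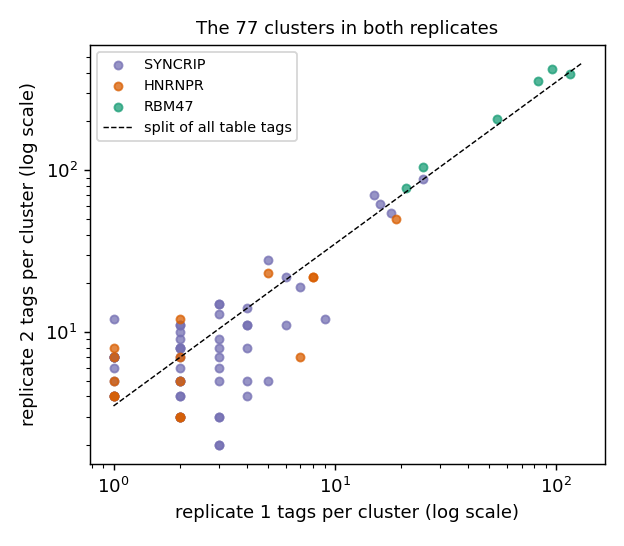
Tags per cluster in replicate 1 and replicate 2, both on log scales, for the 77 clusters of RBM47, SYNCRIP and HNRNPR, with the dashed line at the split of all table tags. The 6 RBM47 clusters, from 21 and 77 tags to 116 and 391 tags, lie close to the line, and the spread around it is widest below 10 replicate 1 tags.

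Other genes of the pathways in which the family acts were read in the same way. Of 7 genes around APOBEC1 editing, APOBEC1 itself and its target APOB had no cluster. The other 5, KHSRP, HNRNPAB, DNAJB11, CELF2 and BAG4, had between 161 and 234 tags over both replicates. HNRNPAB had 43 tags in replicate 1 and 191 in replicate 2, mostly in its 3'UTR, and KHSRP had 49 and 183. Both were below HNRNPR (62 and 182) in replicate 1 and above it in replicate 2. DNAJB11 and BAG4 had 185 each over both replicates. CELF2 had 42 and 119 tags and none in a CDS-containing cluster.

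SYNCRIP is also part of a complex that stabilises mRNA through a coding region determinant. Of the other 4 proteins of that complex, IGF2BP1 had no cluster. HNRNPU had 299 tags in replicate 1 and 1102 in replicate 2, more than SYNCRIP, whereas YBX1 had 33 and 82 and DHX9 23 and 52. All 8 of the other proteins with several RNA recognition motifs had clusters. Their tags ranged from 42 in MSI2 to 1582 in PABPC1, the cytoplasmic poly(A)-binding protein, with a median of 626.5. TIAL1 (1485 tags) and RBM39 (1039) had more than SYNCRIP, CELF1 (855) and PTBP1 (398) lay between SYNCRIP and HNRNPR, and the stabilising protein ELAVL1 (176) and TIA1 (170) had fewer than HNRNPR. Per kb of clusters RBM47 was above every gene with clusters of these 3 lists in both replicates, and PABPC1 came next with 0.0809 ± 0.00164 (SD, n = 2) tags per 1000 table tags. Of the mesenchymal markers, VIM was above RBM47 in both replicates, at 0.275 ± 0.00531 (SD, n = 2). CD44, EGFR and FN1 were below RBM47. In VIM, CDS-containing clusters held 98.2% of the tags. In PABPC1, CDS-containing clusters held 68.3% of the tags. None of the genes with clusters in the 3 lists passed the test of the split by gene.

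The genes most like each member in the shares of tags over 6 classes of label were found among the 3821 genes with at least 100 tags, by the summed difference of the shares divided by 2. For RBM47 they were NUP155, a nuclear pore protein, RSC1A1 and HSP90B1, an endoplasmic reticulum chaperone, at distances of 0.894, 1.33 and 5.63 percentage points. Of these HSP90B1 had 1760 tags in 20 clusters, and NUP155 and RSC1A1 had 162 and 163 tags. For SYNCRIP they were GOPC, ABHD17B and TANC1 at 1.37 to 3.26 points, and for HNRNPR they were WWC2, GRAMD3 and CCSER2 at 1.06 to 1.68 points. The measure rests on the location labels alone.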

How the data were processed

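Flag HITS-CLIP was carried out by the authors in 2 replicates. They collapsed mapped reads to unique tags and grouped these into clusters on the Galaxy platform. The submitters' notes name Novoalign and hg18, and the aligner's version and settings were not given in the sources used here. For every cluster the authors deposited counts of tags, 1 column per replicate, and a total. In 11 SYNCRIP and 2 HNRNPR clusters the replicate counts summed to more than that total, by 15 and 2 tags. Genes were matched by symbol and their tags summed over all their clusters, from the replicate columns. Members, gene lists and alternatives were chosen with earlier results of these data known. Genes were named by rule: all members and listed genes, the clusters of members with under 15 clusters, otherwise the largest 5 and any that passed, and the 3 most similar genes of each member.

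The table of counts holds part of each library, so its sums are not depths. Splits were tested with exact binomial tests and Benjamini-Hochberg adjustment over all clusters or genes (threshold 0.05, scipy 1.17.1). The test over clusters was tested on simulated data. Lengths and letters came from GENCODE 44 on GRCh37, where transcripts marked basic and coding with both coding ends were used, and older symbols were looked up through the RefSeq gene table of GRCh38.p14. The alternatives were other tag minimums, columns, labels, matching, scalings and tests.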

Additional observations from a re-analysis of the deposited data

How the results depend on the processing

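Of 45 alternatives over 11 results, other than leaving out a replicate, 24 left the value within the SD between replicates, or the count unchanged, and 21 moved it. With 2 replicates, leaving out either one always stays within the SD and says nothing about stability. For the values without a test no direction was at stake. Adding the downstream clusters, and keeping only clusters in which the replicate columns add up to the authors' total, were chosen after seeing the data. With clusters of at least 10 and 30 tags, RBM47 had 0.537 and 0.792 tags per 1000, since fewer table tags remain, and SYNCRIP had 0.156 at 30. The 3'UTR share was 83.3% and 100% in SYNCRIP and 86.4% and 100% in HNRNPR at these minimums, and the share of the largest cluster 15.8% in SYNCRIP and 37.8% in HNRNPR at 10. Counting every label gave 100% CDS in RBM47 and 79.7% 3'UTR in SYNCRIP. As shares of clusters the values were 66.7% in RBM47, 48.2% in SYNCRIP and 46.7% in HNRNPR. With clusters closer than 50 nt merged, the largest held 37.3% in RBM47, 41.1% in SYNCRIP and 68.4% in HNRNPR. With downstream clusters added, SYNCRIP had 0.223 and HNRNPR 0.250 tags per 1000, and their 3'UTR shares were 66.03% and 16.3%. The added clusters carry the downstream label and never count as 3'UTR. They can therefore only raise the tags per 1000 and lower the 3'UTR share, wherever the tags came from. The cause of the other shifts was not tested.

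With each replicate left out, tags per 1000 ranged from 0.395 to 0.445 in RBM47, 0.198 to 0.217 in SYNCRIP and 0.0522 to 0.0621 in HNRNPR. The counts of family clusters and of family genes that passed the split test were 0 under each alternative. For the smallest clusters this was fixed in advance. The beta-binomial test called 11 clusters and 6 genes over the whole table. No comparison of paired conditions was possible because all samples belong to 1 group. Replicate 1 limits single clusters of SYNCRIP and HNRNPR, where 28 of 56 and 10 of 15 had at most 2 tags in it.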
